A study of Homo sapiens with 4 samples.

Results

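The genes described are 9 genes of MHC class I antigen presentation: *HLA-B*, *HLA-C*, *HLA-E*, *HLA-F*, *B2M*, *TAP1*, *TAP2*, *TAPBP* and *NLRC5*. They were chosen by symbol, as every probe whose RefSeq accession belongs to a symbol of the list. All 9 were found among the 22439 genes with a matched probe, on 16 probes. Gene expression was measured in A549, an established human line of lung adenocarcinoma, on 4 single-colour Agilent microarrays. RNA came from cells transfected with *miR-486-5p* with Lipofectamine RNAiMAX (1 array), from cells transfected in the same way with *miR-486-3p*, the other strand of the same precursor (1 array), and from mock cells that received the reagent without a miRNA (2 arrays). The comparisons ask how expression after each strand differed from mock cells, and whether the strands differed from each other. Cells given a control miRNA were not analysed here, and the time between transfection and RNA extraction for the arrays is not given in the sources used here.

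MHC class I molecules carry peptides made inside the cell to its surface, where CD8 T cells and natural killer cells read them. A heavy chain encoded by an *HLA* gene pairs with beta-2-microglobulin, the product of *B2M*, and is loaded in the endoplasmic reticulum with peptides that the proteasome cuts and the transporter formed by *TAP1* and *TAP2* imports, while tapasin, the product of *TAPBP*, holds the empty molecule beside the transporter. *NLRC5* encodes a transactivator that acts on promoters of these genes, many of which respond to interferon, and tumour cells often express the pathway at a low level.

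Each array had 58201 probes, and those well above background by the scanner software's flag numbered 30690 after *miR-486-5p*, 31516 after *miR-486-3p*, 30785 in mock 1 and 31012 in mock 2. A level below is the log2 of a probe's processed signal minus the 75th percentile of that array, so a level of 0 is the signal at that percentile. Levels were compared between arrays for the same probe, and signals of different probes were set together only in the sums over cell type markers and in choosing a brightest probe. The tests were limma fits over 33498 probes with p-values adjusted by the Benjamini-Hochberg method, and a gene was called where the adjusted p of at least 1 of its probes was under 0.05. The only residual degree of freedom lay between the mock arrays, so each transfected array was taken to vary as the mock arrays did, and nothing in the sources used here says that the arrays came from separate cultures, so the p-values measure only the spread between these arrays. An exact permutation test of 1 array against 2 has 3 arrangements and cannot give a p below 0.333. Both strands were compared with the same mock arrays, so their comparisons with mock are not independent. Of the 16 probes, 14 were well above background on all 4 arrays. Class I heavy chain genes are close copies of each other and probe sequences were not used here, so a signal given under one *HLA* gene may include RNA of another.

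After *miR-486-3p*, 8 of the 9 genes were called higher than mock, against 31.9% of the 16662 genes tested. They were *HLA-B*, *HLA-C*, *HLA-E*, *HLA-F*, *B2M*, *TAP1*, *TAP2* and *NLRC5*. *TAPBP* alone was called lower, through 1 of its 3 probes, against 31.6% of all genes tested. The *miR-486-3p* level lay above both mock arrays for 14 of the 15 tested probes and below both for 1. Among the 14 was *TAP2* probe a, which entered the test through its *miR-486-3p* signal alone. That selection favoured a higher level after this strand, so the direction of *TAP2* probe a is not independent of it. After *miR-486-5p*, *NLRC5* alone was called higher, against 3.58% of all genes tested, and *TAP2* alone lower, against 6.66%. The call of *TAP2* rested on a probe too dim to count as well above background after *miR-486-5p* or in either mock array, and its other probe did not pass (adjusted p = 0.0517). Counted over probes well above background on at least 1 side, a rule chosen after the values were seen, 0 genes of the list were called lower after *miR-486-5p* with limma, where 6.79% of 16024 genes were. There 2 of the list, *TAP1* and *TAP2*, were lower with an unadjusted p under 0.05, as were 4095 of the 16024 genes.

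Set directly against *miR-486-5p*, the *miR-486-3p* array was called higher for 6 of the 9 genes (*HLA-C*, *HLA-E*, *HLA-F*, *B2M*, *TAP1* and *TAP2*), where 26.7% of all genes tested were, and lower for *TAPBP*, where 27.3% were. With median scaling only *TAP1* and *TAP2* were called higher there (19.1% of all genes tested), and without a filter on dim probes only *HLA-E*, *TAP1* and *TAP2* (14.2%). By size alone, 8 of the 9 genes were more than 0.5 above mock on the log2 scale after *miR-486-3p* (30.4% of 16446 genes with a measured difference) and 0 were more than 0.5 below it (27.2%). After *miR-486-5p*, 1 gene was more than 0.5 above mock (13.8% of 16024 genes) and 2 more than 0.5 below it (15.9%). The median log2 difference over the 9 genes was 0.86 after *miR-486-3p*, beside 0.06 over all genes, and 0.26 after *miR-486-5p*, beside 0.03. The difference of a gene averages its probes in use, with a group that was not well above background raised to the lowest signal above background on its arrays, or to its own signal where that was higher. When arrays were scaled on their medians in place of the 75th percentile, the median over all genes after *miR-486-3p* moved by -0.37 to -0.32 and that of the 9 genes to 0.49. It was 0.55 with normexp and 0.68 when only probes well above background on all arrays were kept, without *TAP2* probe a.

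**Figure D1:**
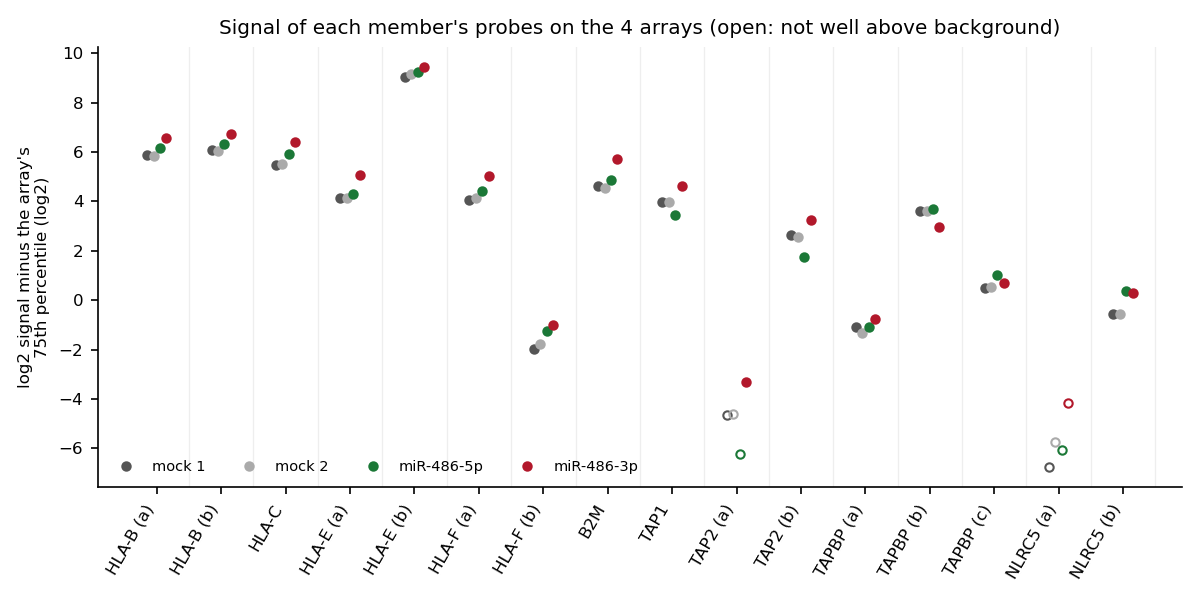
Level of each probe (log2 of the signal minus the 75th percentile of the array) on the 2 mock arrays (grey), the *miR-486-5p* array (green) and the *miR-486-3p* array (red), 1 point an array, with open points for probes not well above background there and letters for the probes of a gene. The *miR-486-3p* points lie above both mock points at every tested probe except TAPBP (b), where *miR-486-3p* is at 2.98 and the mock arrays at 3.59 and 3.60. TAP2 (a) entered the test through its *miR-486-3p* signal alone, a selection that favoured this order.

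Markers of cell type were read beside these values, and several differed from mock with the strands. Of 4 epithelial markers, *KRT8*, *KRT18* and *KRT19* were well above background on all 4 arrays, and *EPCAM* was so after *miR-486-5p* and in mock 2, so that no difference between *miR-486-3p* and mock is given for it. *EPCAM* was called lower after *miR-486-3p*, with no p given, since it was not well above background on that array. Signals of the 4 epithelial markers, in units of the 75th percentile of each array, summed to 153 after *miR-486-5p*, 159 after *miR-486-3p*, and 214 and 212 on the mock arrays, with *KRT18* the brightest and most of the sum. Its probes differed from mock after *miR-486-3p* by -0.40 and -0.42 (adjusted p = 0.0595 and 0.0447). The 3 probes of *KRT8* were at -1.39, -2.13 and 0.60 after *miR-486-3p* (adjusted p = 0.00859, 0.00762 and 0.0306). After *miR-486-5p* the same probes were at -0.69, -1.07 and 1.62 (adjusted p = 0.0532, 0.0475 and 0.0475). *KRT19* rose by 0.45 after *miR-486-3p* (adjusted p = 0.0401) and fell by 0.99 after *miR-486-5p* (adjusted p = 0.0475). Of 6 leukocyte and blood markers, 5 had a probe well above background on all arrays and *HBB* was not above it on any, and the sums were 8.35, 8.73, 7.73 and 8.59 in the same order, with *CD79A* the brightest. *CD14* in that list rose after *miR-486-3p* by 2.22 (adjusted p = 0.00762), and *PTPRC* on 1 of its 2 tested probes by 0.61 (adjusted p = 0.0389). Of 4 fibroblast markers, *DCN* and *PDGFRB* were well above background on all arrays and *COL1A2* on none, *COL1A1* was above it on the mock arrays alone, and the sums were 0.249, 0.460, 0.265 and 0.236, with *DCN* the brightest, which rose after *miR-486-3p* by 1.89 (adjusted p = 0.0397). *COL1A1* was called lower after *miR-486-3p*, with no p given, since it was not well above background on that array. *PDGFRB* was at 0.19 there (adjusted p = 0.204). The part of these markers in the values of the 9 genes was not tested. RNA of whole cultures was measured, so fewer expressing cells and less RNA per cell cannot be told apart.

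*HLA-B* and *HLA-C* encode classical heavy chains, which present peptides to CD8 T cells, and lie on chromosome 6. *HLA-B* had 2 probes. The level of probe a was 6.14 on the *miR-486-5p* array, 6.58 on the *miR-486-3p* array, 5.89 on mock 1 and 5.84 on mock 2. Probe b stood at 6.31 after *miR-486-5p*, at 6.71 after *miR-486-3p* and at 6.10 and 6.02 on the mock arrays. On both probes the mock arrays lay close together, the *miR-486-5p* array above them and the *miR-486-3p* array highest. *HLA-B* rose after *miR-486-3p* by 0.72 on the log2 scale (SE 0.09, 1.64-fold, adjusted p = 0.0184) on probe a and by 0.65 (SE 0.10, adjusted p = 0.0236) on probe b. The differences of 0.28 and 0.25 after *miR-486-5p* did not pass (adjusted p = 0.146 and 0.179), and neither did the differences between the strands, 0.44 and 0.40 (adjusted p = 0.0606 and 0.0803). Under median scaling, where the gene-level difference after *miR-486-3p* was 0.31, *HLA-B* was no longer called.

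*HLA-C* had 1 probe, with a level of 5.91 after *miR-486-5p*, 6.40 after *miR-486-3p*, and 5.49 and 5.50 on the mock arrays. Both transfected arrays were above the mock arrays, which differed from each other by 0.01. *HLA-C* rose after *miR-486-3p* by 0.90 (95% interval 0.61 to 1.19, 1.87-fold, adjusted p = 0.0128). The difference after *miR-486-5p*, 0.42, did not pass (adjusted p = 0.0829), although its 95% interval, which is not adjusted for the number of probes, ran from 0.13 to 0.71. *HLA-C* was also higher after *miR-486-3p* than after *miR-486-5p*, by 0.48 (adjusted p = 0.0489), a call lost with median scaling and without a filter on dim probes. With median scaling its difference from mock after *miR-486-3p* was 0.53, and was still called.

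Promoters of class I genes are known to hold binding sites for NF-kappaB, interferon regulatory factors, CREB/ATF and NF-Y upstream of the start, and *NLRC5* acts on these promoters together with the RFX complex. The promoter of *HLA-B* is shown because it holds letters of 3 such motifs; it is the reference sequence of RefSeq (GRCh38.p14), not that of A549, and covers the 180 bases before the start at chr6:31357180-31357359 on the minus strand, 5′ to 3′. Capitals mark matches on either strand to CCAAT, to TGACG, to paired GAAA (GAAA, any 2 bases and GAAA again) and to the NF-kappaB consensus.
HLA-B: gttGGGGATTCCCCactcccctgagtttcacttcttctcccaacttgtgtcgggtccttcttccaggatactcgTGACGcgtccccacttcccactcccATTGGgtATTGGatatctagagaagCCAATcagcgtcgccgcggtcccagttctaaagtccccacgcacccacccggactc
The NF-kappaB consensus was matched from 177 to 167 bases before the start, by 2 overlapping stretches on both strands. TGACG lay at 106 to 102 bases, and CCAAT at 56 to 52 bases on the strand of the gene and at 81 to 77 and 74 to 70 bases on the other. In windows of 180 bases before 35116 RefSeq starts, CCAAT was found in 26.2%, TGACG in 17.3%, paired GAAA in 2.15% and the NF-kappaB consensus in 7.4%. The table held an entry for 7 of the 9 genes, not for *HLA-E* or *NLRC5*. A match states only that these letters are in the window.

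*HLA-E* and *HLA-F* encode non-classical heavy chains, and HLA-E is known as a ligand of the NKG2A receptor of natural killer cells. The level of *HLA-E* probe a was 4.31 after *miR-486-5p*, 5.07 after *miR-486-3p*, and 4.13 and 4.14 on the mock arrays. Probe b read 9.22 after *miR-486-5p*, 9.44 after *miR-486-3p*, and 9.05 and 9.18 on the mock arrays. On probe a the *miR-486-3p* array stood apart from the other arrays, whereas on probe b the 4 arrays lay closer together and *miR-486-5p* was near mock 2. *HLA-E* rose after *miR-486-3p* on probe a, by 0.93 (SE 0.09, 1.91-fold, adjusted p = 0.0124). Probe b gave 0.33 (95% interval -0.04 to 0.69, adjusted p = 0.0993) and did not pass. The processed signals of probe b ran from 60566.2 to 66061.4 units on the 4 arrays, and 0 spots on any array were marked as saturated. Before scaling, the *miR-486-3p* signal, 64596.8 units, lay between those of the mock arrays, 60566.2 and 66061.4. Whether so bright a probe can show a change was not tested. The gene-level difference of 0.63 averages it with probe a. Between the strands, probe a differed by 0.76 (adjusted p = 0.0245), a call lost with median scaling, and probe b by 0.22 (adjusted p = 0.248). After *miR-486-5p* the probes differed from mock by 0.17 and 0.10, with adjusted p-values of 0.26 and 0.53.

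*HLA-F* was measured by 2 probes assigned to different transcripts. Probe a was at 4.44 after *miR-486-5p*, 5.02 after *miR-486-3p*, and 4.05 and 4.14 on the mock arrays. Probe b was at -1.26 after *miR-486-5p*, -1.01 after *miR-486-3p*, and -1.98 and -1.76 on the mock arrays. Each probe had the *miR-486-3p* array highest, the *miR-486-5p* array next and the mock arrays lowest. *HLA-F* rose after *miR-486-3p* by 0.93 on probe a (SE 0.10, 1.90-fold, adjusted p = 0.0149) and by 0.86 on probe b (SE 0.15, adjusted p = 0.0296). After *miR-486-5p* the differences of 0.34 and 0.61 did not pass (adjusted p = 0.128 and 0.0967). Probe a was higher after *miR-486-3p* than after *miR-486-5p* by 0.59 (adjusted p = 0.0449), a call lost with median scaling, without a filter on dim probes and in the fit on gene means, while the 0.25 of probe b did not pass (adjusted p = 0.312).

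*B2M*, on chromosome 15, encodes the light chain shared by class I molecules. Its probe was spotted 10 times on each array, and the SD of the log2 signal over these spots lay between 0.02 and 0.04. The level was 4.86 after *miR-486-5p*, 5.72 after *miR-486-3p*, and 4.61 and 4.53 on the mock arrays. The *miR-486-3p* array was set apart from the other arrays by more than those differed among themselves. *B2M* rose after *miR-486-3p* by 1.15 (95% interval 0.82 to 1.47, 2.22-fold, adjusted p = 0.011). This was the largest gene-level difference of the 9 genes after that strand under the reported setting. *TAP2*, at 0.98, has a probe at its lower bound there and may lie higher. It was also higher after *miR-486-3p* than after *miR-486-5p*, by 0.86 (adjusted p = 0.0236), a call lost with median scaling and without a filter on dim probes. The difference of 0.29 after *miR-486-5p* did not pass (adjusted p = 0.154). *B2M* was called higher there with normexp and with a prior that follows intensity, which each called 22.2% of all genes tested higher. The promoter of *B2M* is shown because it held all 4 kinds of letters searched; it covers chr15:44711337-44711516 on the plus strand of GRCh38.p14, with capitals as above.
B2M: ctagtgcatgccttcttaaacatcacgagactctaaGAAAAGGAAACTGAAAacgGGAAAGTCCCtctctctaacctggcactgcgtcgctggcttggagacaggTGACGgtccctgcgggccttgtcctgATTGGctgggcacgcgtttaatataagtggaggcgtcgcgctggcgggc
Paired GAAA was matched at 144 to 135 and at 138 to 129 bases before the start, in stretches that overlap. The NF-kappaB consensus lay at 125 to 116 bases on the other strand, TGACG at 75 to 71 bases, and CCAAT at 49 to 45 bases on the other strand.

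**Figure D2:**
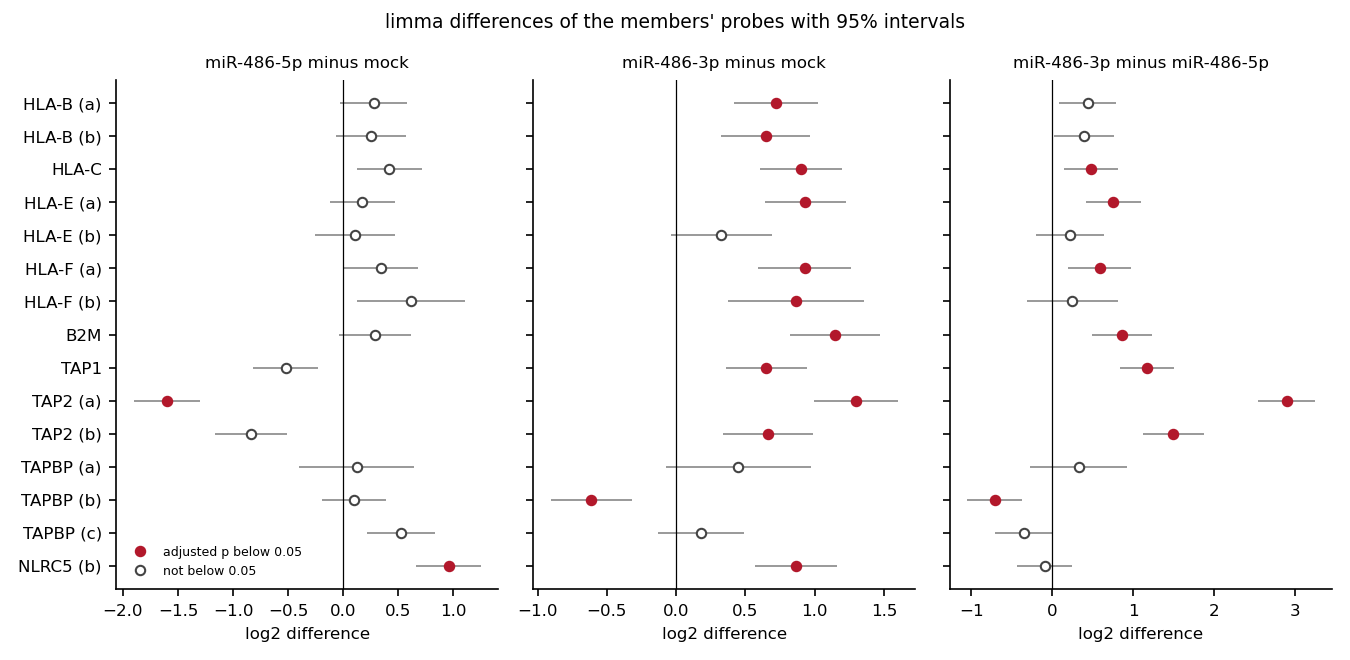
limma differences (log2 scale) of the 15 tested probes with 95% intervals for *miR-486-5p* minus mock, *miR-486-3p* minus mock and *miR-486-3p* minus *miR-486-5p*, red where the adjusted p is under 0.05. In the middle panel 11 probes are higher, among them TAP2 (a), which was tested only because it was above background after *miR-486-3p*, and 1, TAPBP (b), is lower at -0.61. In the left panel only NLRC5 (b) and TAP2 (a), which was not well above background on either side, are red.

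*TAP1* and *TAP2* encode the subunits of the peptide transporter and are neighbours in the class II region of chromosome 6. *TAP1* had a level of 3.44 after *miR-486-5p*, 4.62 after *miR-486-3p*, and 3.97 on each mock array. The *miR-486-5p* array was the lowest and the *miR-486-3p* array the highest, on either side of mock arrays that differed by less than 0.01. *TAP1* rose after *miR-486-3p* by 0.65 (SE 0.09, 1.57-fold, adjusted p = 0.0202). The difference after *miR-486-5p* was -0.52 (95% interval -0.82 to -0.23), at 69.5% of the mock level, and did not pass (adjusted p = 0.0646), whereas *TAP1* was called lower with normexp, over probes well above background on all arrays, with a prior that follows intensity and in the fit on gene means. Those settings called 23.1%, 20.7%, 25% and 16.9% of all genes tested lower there, so the gain is not particular to *TAP1*. Between the strands *TAP1* was higher after *miR-486-3p* by 1.18 (95% interval 0.84 to 1.51, 2.26-fold, adjusted p = 0.0148). Under median scaling the difference from mock after *miR-486-3p* was 0.28 and was not called, and the difference between the strands was.

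*TAP2* was measured by 2 probes assigned to different transcripts. Probe b, well above background on all 4 arrays, was at 1.74 after *miR-486-5p*, 3.24 after *miR-486-3p*, and 2.62 and 2.54 on the mock arrays. As with *TAP1*, the *miR-486-5p* array was lowest and the *miR-486-3p* array highest. On probe b *TAP2* rose after *miR-486-3p* by 0.67 (SE 0.10, 1.59-fold, adjusted p = 0.0232) and stood at -0.84 (SE 0.10, 56.0% of mock) after *miR-486-5p*, which did not pass (adjusted p = 0.0517). Over probes well above background on all arrays, where probe b alone is left, *TAP2* was called lower after *miR-486-5p*, as were 20.7% of all genes. The strands differed on this probe by 1.50 (95% interval 1.13 to 1.88, 2.83-fold, adjusted p = 0.0132). Probe a was well above background only after *miR-486-3p*, at -3.32, with -6.22 after *miR-486-5p* and -4.64 and -4.60 on the mock arrays. Its bounds were at least 2.46-fold above mock and at least 2.44-fold above *miR-486-5p*. This probe was in the test only because it was well above background after *miR-486-3p*, so its p-values are not given for that array, and the calls of *TAP2* involving *miR-486-3p* also hold on probe b. No fold is given for probe a between *miR-486-5p* and mock, since neither was well above background.

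The promoters of *TAP1* and *TAP2* are shown because the sign of their differences from mock depended on the strand; each is the stretch of 180 bases before the start on the minus strand of GRCh38.p14, at chr6:32853705-32853884 for *TAP1*, from its start farthest upstream, and at chr6:32838740-32838919 for *TAP2*, with capitals as above.
TAP1: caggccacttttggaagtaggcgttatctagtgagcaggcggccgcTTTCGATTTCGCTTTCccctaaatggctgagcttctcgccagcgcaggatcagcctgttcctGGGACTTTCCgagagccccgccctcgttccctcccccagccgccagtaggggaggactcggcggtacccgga
TAP2: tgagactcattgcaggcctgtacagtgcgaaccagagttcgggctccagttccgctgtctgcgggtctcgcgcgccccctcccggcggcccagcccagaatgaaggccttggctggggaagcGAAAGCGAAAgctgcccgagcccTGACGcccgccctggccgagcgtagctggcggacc
In *TAP1*, paired GAAA was matched on the other strand at 134 to 125 and at 128 to 119 bases before the start, in stretches that overlap, and the NF-kappaB consensus at 72 to 63 bases. In *TAP2*, paired GAAA was matched at 58 to 49 bases and TGACG at 35 to 31 bases. CCAAT was not matched in either window. The other strand of the *TAP1* promoter is known to drive *PSMB9*, which encodes an immunoproteasome subunit. *PSMB9* had a level of 2.58 after *miR-486-5p*, 3.54 after *miR-486-3p*, and 2.68 and 2.76 on the mock arrays. It rose after *miR-486-3p* by 0.81 (SE 0.10, adjusted p = 0.017), and its difference of -0.14 after *miR-486-5p* did not pass (adjusted p = 0.366).

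*TAPBP* had 3 probes, and they did not give the same direction after *miR-486-3p*. Probe a was at -1.09 after *miR-486-5p*, -0.76 after *miR-486-3p*, and -1.09 and -1.34 on the mock arrays. Probe b was at 3.69 after *miR-486-5p*, 2.98 after *miR-486-3p*, and 3.59 and 3.60 on the mock arrays. Probe c was at 1.03 after *miR-486-5p*, 0.69 after *miR-486-3p*, and 0.48 and 0.54 on the mock arrays. Thus *miR-486-3p* was the highest array on probe a, the lowest on probe b and between *miR-486-5p* and mock on probe c. Probe b, which is assigned to another transcript than probes a and c, fell by 0.61 after *miR-486-3p* (SE 0.09, to 65.4% of mock, adjusted p = 0.0223). Probes a and c were at 0.45 and 0.18 and did not pass (adjusted p = 0.107 and 0.204). With normexp and with a prior that follows intensity, *TAPBP* was called both higher and lower after *miR-486-3p*, on different probes. The mean over the 3 probes after *miR-486-3p* was 0.00, which describes none of them.

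After *miR-486-5p*, the *TAPBP* differences were 0.12, 0.10 and 0.52 on probes a, b and c, with adjusted p-values of 0.608, 0.474 and 0.0686. Between the strands, probe b was lower after *miR-486-3p* by a difference of -0.71 (adjusted p = 0.0267), and probes a and c, at 0.33 and -0.35, did not pass (adjusted p = 0.238 and 0.0958). In a fit on the mean over the probes of each gene, *TAPBP* was not called in either comparison that involves *miR-486-3p*. The promoter of *TAPBP*, shown as the gene whose probes parted, covers chr6:33314079-33314258 on the minus strand of GRCh38.p14, with capitals as above.
TAPBP: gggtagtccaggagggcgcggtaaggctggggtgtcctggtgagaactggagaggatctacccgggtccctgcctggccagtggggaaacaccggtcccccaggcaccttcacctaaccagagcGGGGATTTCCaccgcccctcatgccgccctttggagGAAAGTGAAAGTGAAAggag
Paired GAAA was matched at 20 to 11 and at 14 to 5 bases before the start, in stretches that overlap, and the NF-kappaB consensus at 56 to 47 bases. Over the 7 genes with an entry, paired GAAA was matched for *HLA-F*, *B2M*, *TAP1*, *TAP2* and *TAPBP* and not for *HLA-B* or *HLA-C*.

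*NLRC5*, on chromosome 16, encodes the transactivator of class I genes. Its measurable probe, b, was at 0.39 after *miR-486-5p*, 0.30 after *miR-486-3p*, and -0.56 and -0.58 on the mock arrays. Both transfected arrays lay above mock and near each other. *NLRC5* rose by 0.96 after *miR-486-5p* (95% interval 0.66 to 1.25, 1.94-fold, adjusted p = 0.0475) and by 0.86 after *miR-486-3p* (95% interval 0.57 to 1.16, 1.82-fold, adjusted p = 0.0136). The strands differed by -0.09 (95% interval -0.43 to 0.25, adjusted p = 0.503). The other probe of *NLRC5* was not well above background on any array and was not tested. The adjusted p of 0.0475 is the smallest that any probe reached after *miR-486-5p*, and *NLRC5* was not called there without a filter on dim probes, with the authors' log2 values or with a t-test. In each of these 3 settings 0 genes of the whole table were called after *miR-486-5p*, so the loss is not particular to *NLRC5*. Its difference after *miR-486-5p* was 0.915 with the authors' values, 0.62 with normexp and 0.57 without a filter, and after *miR-486-3p* it ran from 0.49 with median scaling to 1.48 without a filter, where the dim probe enters the mean.

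**Figure D3:**
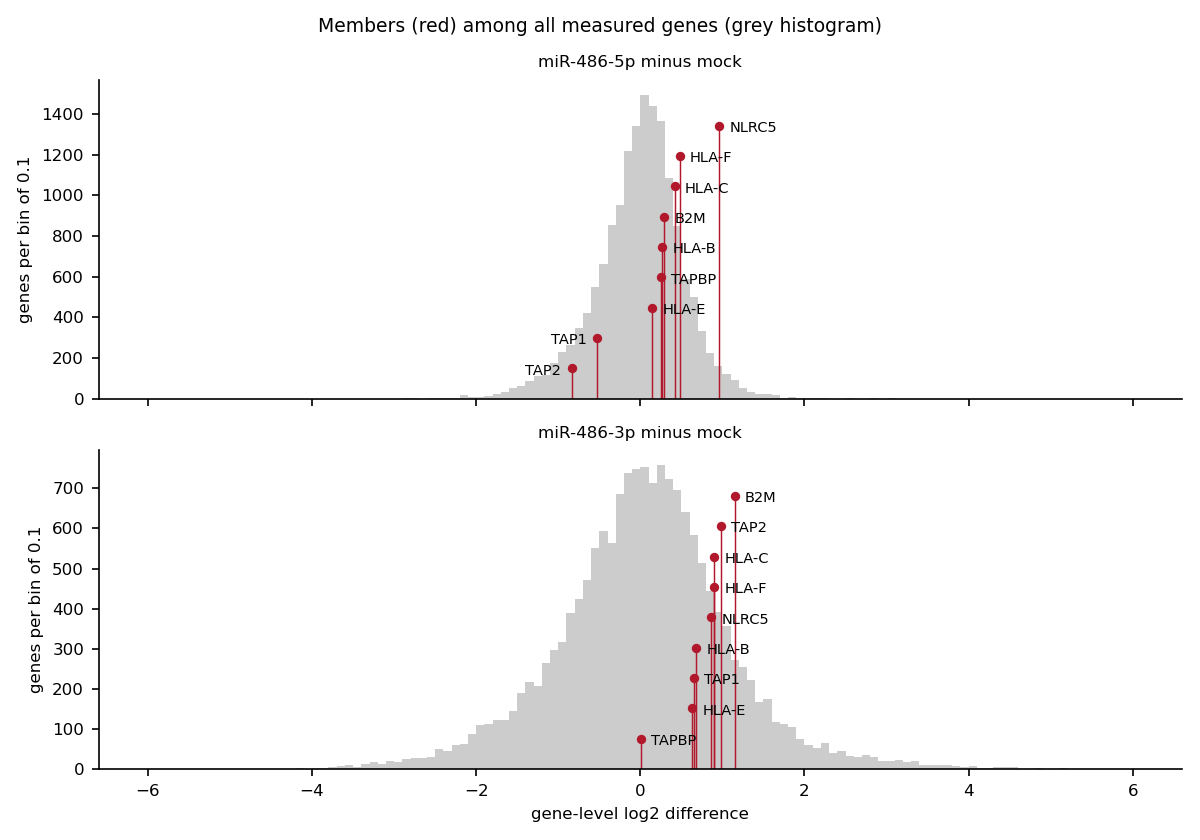
Histograms of the gene-level log2 difference from mock over all genes with a measured difference (bins of 0.1) after *miR-486-5p* (top) and *miR-486-3p* (bottom), with the 9 genes as red lines, whose heights only separate the names. After *miR-486-3p*, 8 of the 9 genes lie between 0.63 and 1.15 and *TAPBP*, with probes of opposite direction, at 0.00, while after *miR-486-5p* the 9 genes run from -0.84 for *TAP2* to 0.96 for *NLRC5*.

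In the order of their gene-level differences after *miR-486-3p*, the genes were *B2M* (1.15), *TAP2* (0.98 with probe a at its bound, 0.67 on probe b), *HLA-C* (0.90), *HLA-F* (0.90), *NLRC5* (0.86), *HLA-B* (0.68), *TAP1* (0.65), *HLA-E* (0.63) and *TAPBP* (0.00). The SD between the mock arrays was 0.11 for *HLA-F* and 0.06 or less for each of the others. After *miR-486-5p* the order ran from *NLRC5* (0.96) through *HLA-F* (0.48), *HLA-C* (0.42), *B2M* (0.29), *HLA-B* (0.26), *TAPBP* (0.25) and *HLA-E* (0.14) to *TAP1* (-0.52) and *TAP2* (-0.84). The transporter genes were thus the only ones of the 9 below mock after *miR-486-5p* at the gene level, under each of the 10 other settings as well. Differences of separate genes were not tested against each other.

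**Figure D4:**
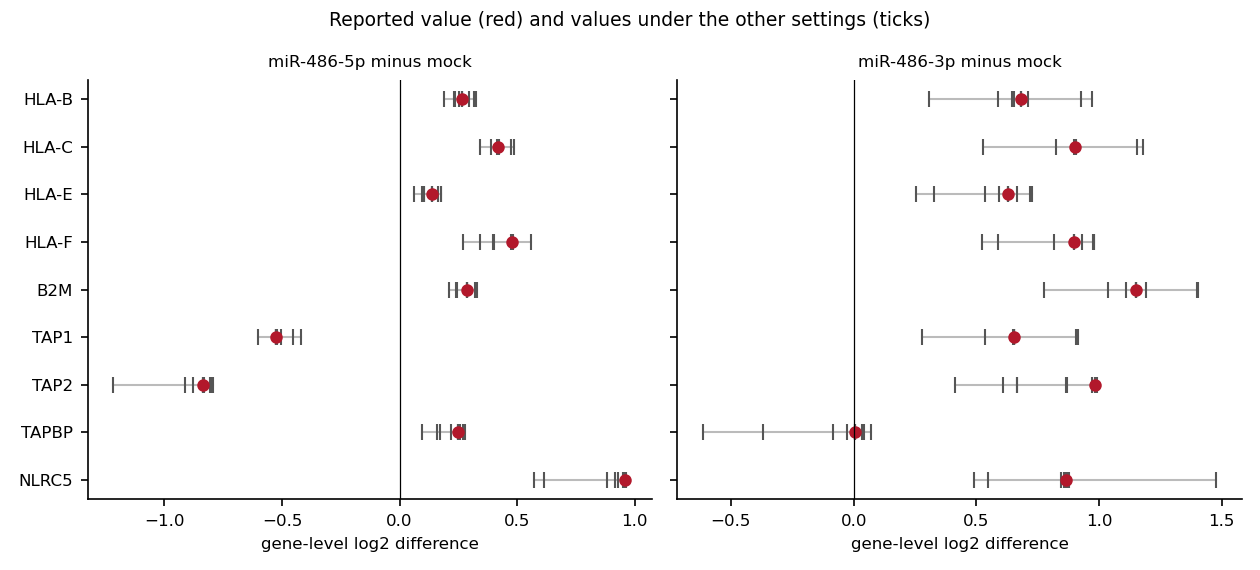
Gene-level log2 difference from mock of each gene after *miR-486-5p* (left) and *miR-486-3p* (right) as reported (red) and under 10 other settings (ticks), joined by a grey line from the lowest to the highest. After *miR-486-3p* the ticks of *B2M* run from 0.77 to 1.40 and those of *TAPBP* from -0.61 to 0.07, across 0. After *miR-486-5p* those of *TAP1* run from -0.60 to -0.42.

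Genes that work beside the 9 in the same pathway were described by lists, whose counts stand beside 31.9% higher and 31.6% lower of all genes tested after *miR-486-3p*, and 3.58% and 6.66% after *miR-486-5p*. Of 7 other genes of peptide loading and trimming, 4 were called higher and 2 lower after *miR-486-3p*, with a median of 0.45. The aminopeptidases that trim peptides in the endoplasmic reticulum were among the former: *ERAP2* rose by 1.40 (adjusted p = 0.0152), and *ERAP1* by 0.53 on its measured probe (adjusted p = 0.0328). *TAPBPL*, a homologue of tapasin, rose by 0.95 (adjusted p = 0.0124), and *PDIA3*, a thiol oxidoreductase of the loading complex, on 1 of its 2 probes by 0.66 (adjusted p = 0.0263). *CALR*, a chaperone of that complex, fell by 0.94 (adjusted p = 0.0121) and *UGGT1*, a sensor of folding, by 0.84 (adjusted p = 0.0383). *CANX*, the chaperone of newly made heavy chains, stood at 0.18 after *miR-486-3p* but at -0.85 after *miR-486-5p*, neither called, and was higher after *miR-486-3p* than after *miR-486-5p* by 1.05 on probe a (adjusted p = 0.0208). After *miR-486-5p*, limma called 0 of the 7, with an unadjusted p under 0.05 for 3 higher and 1 lower (3876 and 4187 of 16662 genes). With a prior that follows intensity 3 higher and 1 lower were called (22.2% and 25% of all genes tested).

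Among 5 subunits of the immunoproteasome and its activator PA28, *PSMB9* and *PSME1* rose after *miR-486-3p*, the latter by 1.13 (adjusted p = 0.0103). *PSMB8* was at 0.10, *PSME2* at 0.03 and *PSMB10* at -0.39, with adjusted p-values of 0.435, 0.761 and 0.064, and the median over the list was 0.10. Of the 3 catalytic subunits that the immunoproteasome replaces, *PSMB5* fell by 0.57 (adjusted p = 0.025) and *PSMB7* by 0.44 (adjusted p = 0.0392), and *PSMB6* was at 0.04 (adjusted p = 0.694). After *miR-486-5p*, limma called 0 of the 8 genes of the pair of lists. An unadjusted p under 0.05 was found for 1 higher and 1 lower of the former and 0 of the latter (3876 higher and 4187 lower of 16662 genes). With a prior that follows intensity 1 was higher and 2 lower in the former and 3 higher in the latter (22.2% higher and 25% lower of all genes tested).

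Of 14 genes for factors that bind class I promoters, 3 were called higher (31.9% of all genes tested) and 7 lower (31.6%) after *miR-486-3p*, with a median of -0.40 over 13 measured. *IRF1*, an activator of class I and *TAP1* transcription, rose by 1.44 (adjusted p = 0.0121). Of the subunits of NF-Y, which binds CCAAT, *NFYA* rose by 0.63 (adjusted p = 0.0268) and 0.88 (adjusted p = 0.02) on its probes and *NFYB* fell by 1.74 (adjusted p = 0.00777). The other subunit, *NFYC*, named here after its values were seen, fell by 0.70, 0.67, 1.15 and 0.81 on its 4 probes (adjusted p = 0.0225, 0.0201, 0.0105 and 0.0193). *RELA*, a subunit of NF-kappaB, fell by 1.09 on each of its probes (adjusted p = 0.0116 and 0.0104). After *miR-486-5p*, limma called 0 of the 14, with an unadjusted p under 0.05 for 3 higher and 5 lower (3876 and 4187 of 16662 genes). The same counts were called with a prior that follows intensity (22.2% and 25% of all genes tested).

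Of 16 genes for interferons, their receptors and signalling, 13 were tested, and the 3 interferon genes of the list, *IFNB1*, *IFNG* and *IFNL1*, were not well above background on any array. The median after *miR-486-3p* was 0.16, with 7 called higher (31.9% of all genes tested) and 2 lower (31.6%), 1 of them in both directions on different probes. *IRF9* rose by 1.77 (adjusted p = 0.00793) and *STAT2* by 1.35 (adjusted p = 0.00881), partners in the factor that type I interferon activates, and *IRF3*, which acts upstream of interferon genes, fell by 0.72 and 1.43 on its probes (adjusted p = 0.0273 and 0.0133). After *miR-486-5p*, 2 were called higher and 1 lower, where 3.58% and 6.66% of all genes tested were. *IRF9* was higher there by 0.93 (adjusted p = 0.0488).

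Of 13 genes inducible by interferon-gamma, 8 were tested. *GBP2* and *UBD* of these were in the test only because they were well above background after *miR-486-3p*, and *UBD* is named here after its values were seen. Leaving out *GBP2* and *UBD*, 1 of the list was called higher after *miR-486-3p* (31.9% of all genes tested) and 2 lower (31.6%). *GBP2*, which encodes a guanylate-binding protein, was at least 4.46-fold above mock, with no p given, and *GBP3* rose by 0.95 and 1.49 on its probes (adjusted p = 0.0336 and 0.0158). *ICAM1*, an adhesion molecule, fell by 0.63 (adjusted p = 0.0216). *CD274*, which encodes PD-L1 and is counted among the 2 lower, was at least 1.52-fold lower on the probe in use, with no p given. It was not well above background after *miR-486-3p*, so it was in the test only through the other arrays. After *miR-486-5p*, limma called 0 of the 8, with an unadjusted p under 0.05 for 3 higher (3876 of 16662 genes). With a prior that follows intensity 3 higher were called (22.2% of all genes tested).

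**Figure D5:**
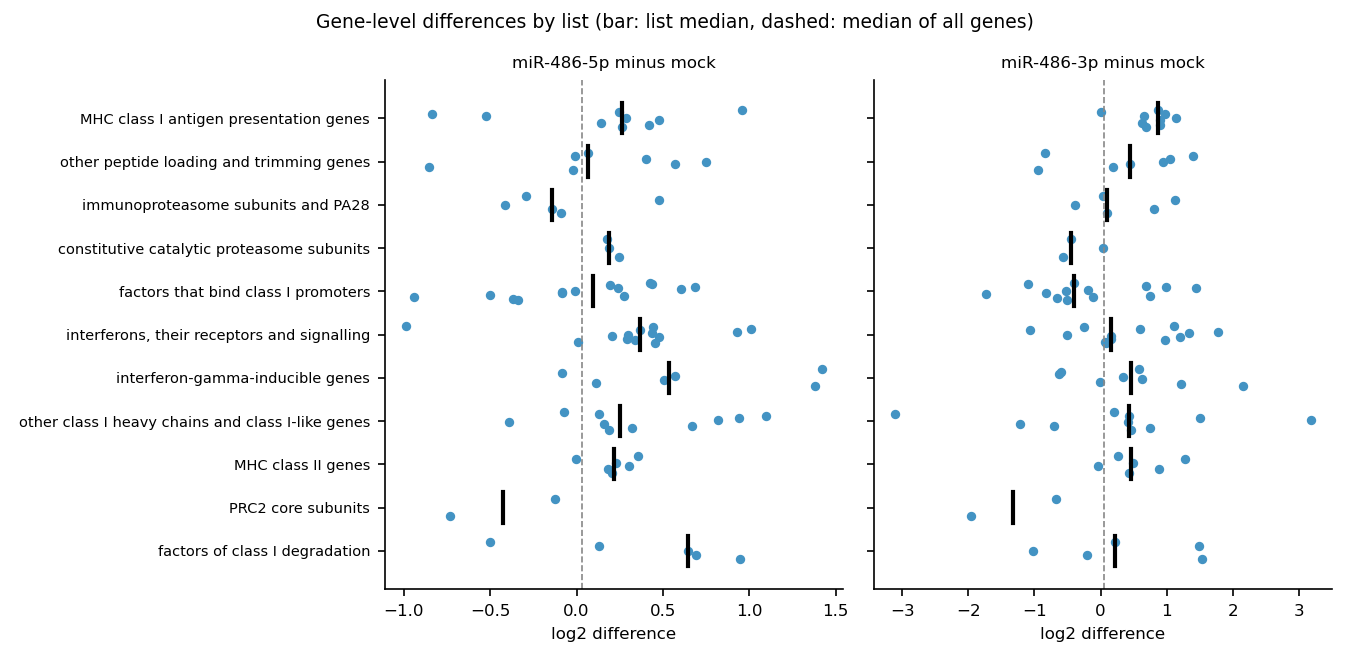
Gene-level log2 difference from mock of the genes of each list (blue points, 1 a gene, spread in height to separate them) after *miR-486-5p* (left) and *miR-486-3p* (right), with the list median as a black bar and the median of all genes as a dashed line at 0.03 and 0.06. Genes with a group not well above background stand at their bound. After *miR-486-3p* the median of the 9 genes is 0.86 and that of the PRC2 subunits -1.32.

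Among 13 other class I heavy chain and class I-like genes, 10 were tested. After *miR-486-3p*, 5 were called higher (31.9% of all genes tested) and 4 lower (31.6%), 1 of them in both directions on different probes, with a median of 0.43. *ULBP2* and *ULBP3*, which encode ligands of the NKG2D receptor, rose by 3.19 (adjusted p = 0.00762) and 1.51 (adjusted p = 0.00821). *MICB*, another such ligand, fell by 1.48 and 0.95 on its probes (adjusted p = 0.0085 and 0.0133). *HFE*, a class I-like gene of iron metabolism counted among those called lower, was at least 8.68-fold lower, with no p given. It was not well above background after *miR-486-3p*, so it was in the test only through the other arrays. After *miR-486-5p*, 2 of the 10 were called higher (3.58% of all genes tested), and *ULBP3* was higher by 0.94 (adjusted p = 0.0475). Of 11 MHC class II genes, 6 were tested and their median after *miR-486-3p* was 0.46, with 2 called higher, where 31.9% of all genes tested were: *HLA-DPA1* by 1.86 (adjusted p = 0.0212) and *HLA-DMA* by 0.90 (adjusted p = 0.0317), each on 1 of 2 probes. After *miR-486-5p*, limma called 0 of the 6, also at an unadjusted p under 0.05 and with a prior that follows intensity.

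PRC2, a chromatin complex known to silence class I genes in tumours, had 2 of its 3 core subunits on matched probes. After *miR-486-3p*, *EZH2* fell by 1.96 (adjusted p = 0.00796) and *SUZ12* by 0.68 (adjusted p = 0.02), with a median of -1.32. After *miR-486-5p* they were at -0.73 and -0.12 (adjusted p = 0.0578 and 0.393), and limma called 0 of them. An unadjusted p under 0.05 was found for 1 lower (4187 of 16662 genes), and 1 lower was called with a prior that follows intensity (25% of all genes tested). Of 5 genes whose products take part in degrading class I molecules, *SUSD6* rose after both strands, by 1.54 after *miR-486-3p* (adjusted p = 0.00817) and by 0.95 after *miR-486-5p* (adjusted p = 0.0475). *IRGQ* rose after *miR-486-3p* by 1.50 (adjusted p = 0.00831), and *WWP2* fell by 1.80 on 1 of its 2 probes (adjusted p = 0.00892). *TMEM127* was at -0.21 and *MARCHF9* at 0.23 (adjusted p = 0.193 and 0.166).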

How the data were processed

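Agilent Feature Extraction 12.1.1.1 files of 4 arrays were used. In them the authors deposited, per the file headers, an intensity on a linear scale for each spot, background-subtracted by that software, and flags. A table of log2 values, also deposited by the authors, had a median of 2.76 on each array and a lowest Pearson correlation with the values used here of 0.9996; their normalization is not given in the sources used here, and they served as an alternative. Groups came from the labels; all arrays lay on 1 slide and shared 1 scan.

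Control spots were dropped, as were outlier spots (mock arrays 62 and 50, *miR-486-5p* 67, *miR-486-3p* 72), the log2 of the processed signal was scaled to the 75th percentile (*miR-486-5p* 105, *miR-486-3p* 93.1, mock arrays 114 and 114 units), and spots of a probe were averaged. A probe was well above background where the flag was set on at least 0.5 of its spots, outlier spots left out, a detail settled after the data were seen. Of 33080 probes with a RefSeq accession, 31104 were named through RefSeq. Probes well above background on a transfected array or on both mock arrays were tested in R 4.3.3 with limma 3.58.1, 3 groups and 1 residual degree of freedom (2.75 with the prior); the script was tested on simulated data. The SD of the difference between the mock arrays was 0.20. The number of arrays limits the precision.

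All probes of the 9 genes are named. From each other list at most the 2 largest rises and falls after *miR-486-3p* among called genes are named, or any measured gene in lists of up to 7. The members and lists were chosen with earlier results of these data known. The lists were other peptide loading and trimming genes, immunoproteasome and PA28, catalytic proteasome subunits, factors that bind class I promoters, interferon signalling, interferon-gamma-inducible genes, other class I-like genes, MHC class II, PRC2, class I degradation, and epithelial, leukocyte and fibroblast markers. Alternatives were median scaling, quantile normalization, normexp (offset 50, on median signals), filters on dim probes, the authors' values, the brightest probe, each mock array left out, bounds left at measured values, a prior that follows intensity, a fit on gene means, a t-test, a limit of 1, and, chosen after the data were seen, calls from probes above background on a side of the comparison. Promoters are those of RefSeq on GRCh38.p14.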

Additional observations from a re-analysis of the deposited data

Results flagged for a closer look

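*TAP1* and *TAP2* stood out because their gene-level differences from mock had opposite signs after the strands, below mock after *miR-486-5p* and above it after *miR-486-3p*, and because the direct limma contrast of the strands called both. *TAP1* was higher after *miR-486-3p* than after *miR-486-5p* by 1.18 on the log2 scale (adjusted p = 0.0148). *TAP2* was higher by 1.39 as the mean over its probes, with the dim probe at its bound, and by 1.50 on its measured probe (adjusted p = 0.0132). The negative differences after *miR-486-5p*, -0.52 for *TAP1* and -0.84 for *TAP2* at the gene level, did not pass on probes that were well above background (adjusted p = 0.0646 and 0.0517). *TAP2* was called lower there as reported, and with median scaling and quantile normalization, but as reported only through the dim probe (adjusted p = 0.0475), which was not above background on either side. *TAP1* and *TAP2* were both called lower with normexp, over probes above background on all arrays, with a prior that follows intensity and in the fit on gene means; of these only the filter on all arrays leaves the dim probe out. These are settings that called 23.1%, 20.7%, 25% and 16.9% of all genes tested lower, against 6.66%. Each strand has 1 array, and the mock arrays that give both differences their reference are the same.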

How the results depend on the processing

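Of 180 gene-level differences of the 9 genes under 10 other settings, 176 kept their sign. Among the 176 were all those with bounds left at measured values, which did not move. The other 4 were of *TAPBP* after *miR-486-3p*, reported at 0.0046: -0.369 with median scaling, -0.0848 with normexp, -0.614 on the brightest probe and -0.0257 without mock 2, against 0.0348 without mock 1. Its probes had opposite directions, and the value on the brightest probe is that of probe b alone. Median scaling moved the median over all genes after *miR-486-3p* by -0.37. *TAPBP* lay at -0.05 from that median under both scalings. The cause of the changes with normexp and without mock 2 was not tested.

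After *miR-486-5p*, where 1 gene was called lower and 1 higher, limma called 0 and 0 without a filter on dim probes (unadjusted p under 0.05: 2 lower, 5 higher) and 0 and 0 with the authors' log2 values (unadjusted 2 and 6). The methods' t-test gave 0 and 0 (unadjusted 2 and 3). In these 3 settings 0 genes of the whole table were called. Lower and higher with an unadjusted p under 0.05 were 4466 and 4918 of 22439 genes without a filter. With the authors' values these were 4343 and 3786 of 16662, and with the t-test 2335 and 2047. The lower call was also 0 over probes in use for the comparison (unadjusted 2, beside 4095 of 16024 genes), a rule chosen after seeing the data. The counts were 2 lower (*TAP1* and *TAP2*) and 6 higher with normexp and with a prior that follows intensity. Those 6 were *HLA-B*, *HLA-C*, *HLA-F*, *B2M*, *TAPBP* and *NLRC5*. Over probes above background on all arrays the counts were 2 and 4 (*HLA-C*, *HLA-F*, *TAPBP* and *NLRC5*), and in the fit on gene means 2 and 2 (*HLA-C* and *NLRC5*). Of all genes tested, normexp called 23.1% lower and 22.2% higher, and the prior 25% and 22.2%. The filter called 20.7% and 17.9%, and the fit on gene means 16.9% and 13.5%. After *miR-486-3p*, the t-test called 0 lower and 0 higher, against 1 and 8 (unadjusted 1 and 7), where it called 0 of all 16662 genes. The fit on gene means called 0 lower there (unadjusted 0), where 32.2% of all genes tested were lower. For *miR-486-3p* against *miR-486-5p*, 2 were higher with median scaling (19.1% of all genes tested) and 3 without a filter (14.2%), against 6 (26.7%). There were 7 higher with quantile normalization, normexp, probes above background on all arrays, the authors' values and a prior that follows intensity. Those settings called 24.6% to 35.3% of all genes tested higher. In the fit on gene means 0 were lower (unadjusted 0), against 1, where 29.2% of all genes tested were lower. The calls after *miR-486-3p* otherwise stayed within 6 to 9 higher, in settings that called 20.4% to 46% of all genes tested higher. The 6 were found with median scaling (20.5% of all genes tested), and the 9 with normexp (46%) and with a prior that follows intensity (38.2%).

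With a limit of 1, 0 genes were past it in either direction after *miR-486-5p* and 1 was above it after *miR-486-3p*. Below -0.5 after *miR-486-5p* there was 1 gene, against 2, with quantile normalization and with the authors' values; above 0.5 after *miR-486-3p* there were 4, against 8, with median scaling, and below -0.5 there was 1, against 0, on the brightest probe. Above 0.5 after *miR-486-5p* there were 1 to 2 with a mock array left out. In the reported setting 30.4% of all genes measured were above 0.5 after *miR-486-3p* and 27.2% below -0.5. After *miR-486-5p* these shares were 13.8% and 15.9%. The shares with a limit of 1 and under the other settings are not given here, so these counts have no share of all genes beside them. The median over the genes after *miR-486-5p* was 0.19 with median scaling, 0.32 with quantile normalization and 0.32 with the authors' values. After *miR-486-3p* it was 0.49 with median scaling, 0.55 with normexp, 0.68 over probes above background on all arrays, 0.915 with the authors' values, 0.67 on the brightest probe and 0.82 to 0.86 with a mock array left out. The cause of these moves was not tested.

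All genes called split into 5309 higher and 5261 lower after *miR-486-3p*, against 3413 and 7574 with median scaling, and into 4443 and 4555 between the strands, against 3183 and 6422. After *miR-486-5p* they split into 596 and 1109, against 3695 and 3845 with normexp, 2678 and 3099 over probes above background on all arrays and 3699 and 4170 with a prior that follows intensity.

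No paired analysis was possible because the groups share fewer than 2 replicate numbers. Slide as a block was not run, since there was 1 slide; leaving out saturated spots changed nothing, since there were 0; the t-test between the strands and limma without a mock array have no residual degrees of freedom. Probes near background, such as *TAP2* probe a, give bounds only.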
